A study of Mus musculus with 6 samples.

Results

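The genes described here make, inactivate or sense prostaglandins in the mouse kidney. They are the 10 entries of the deposited gene table, out of 40993, whose symbols are Pla2g4a, Ptgs1, Ptgs2, Ptges, Ptgds, Ptgis, Hpgd, Ptger1, Ptger3 and Ptger4. Each symbol had 1 entry, and all 10 had a 6-sample mean no lower than 0.5 FPKM, the minimum for testing. Whole kidneys came from C57BL/6 mice aged 2 months, 3 samples from an adenine-enriched diet (adenine 1 to 3) and 3 from a standard diet (standard 1 to 3). Adenine in excess is turned into a poorly soluble product that injures the renal tubule, and the comparison asks how kidney transcripts differ between the diets. No label says how long the diet was given or that the samples were separate animals, so each p reflects only sample-to-sample spread, which may be technical.

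Prostaglandins are short-lived lipid signals that act close to where they are made. Phospholipase A2 frees arachidonic acid from membranes, the cyclooxygenases Ptgs1 and Ptgs2 turn it into an unstable endoperoxide, and a terminal synthase then sets which prostaglandin is formed. In the kidney PGE2 and prostacyclin help to hold up blood flow, the release of renin and the excretion of salt and water, and cells read PGE2 through 4 receptors encoded by Ptger1 to Ptger4.

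Levels are given as FPKM, fragments scaled by transcript length and library size, so genes can be set beside each other per length. Depth, inferred from steps between very low FPKM values, came to about 17.5 to 23.4 M fragments in the adenine samples and about 17.2 to 20.4 M in the standard samples. At these depths 3 fragments of a 2 kb transcript correspond to at most 0.087 FPKM, a limit from counting error only. Standard 2 stood apart in summed FPKM, at 5.661e+06, against 6.008e+05 to 7.899e+05 in the other samples. Markers of renal tubules were present in every sample, with 5 proximal tubule genes summing to 459 to 1095 FPKM in adenine samples and 1330 to 1920 FPKM in standard samples. Over all tested genes the median log2 change was 0.25, and median-of-ratios scaling, which removes that shift, is therefore given beside the values as deposited.

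On the adenine-enriched diet 6 of the 10 genes rose, none fell, and 4 did not pass the test. The receptor gene Ptger4 and the synthase genes Ptgds and Ptgis led the rises and kept their calls after median-of-ratios scaling. Pla2g4a, Ptgs1 and Hpgd rose in the values as deposited, but their calls were lost after that scaling, which left 3 rises and no fall. Ptgs2, Ptges, Ptger1 and Ptger3 were not called. Of all 15431 genes tested by limma with Benjamini-Hochberg adjustment at 0.05, 29.7% were called higher in the adenine group as deposited and 16.8% after scaling, and 6.84% and 15.2% were called lower. The median log2 change was 0.60 over the 10 genes, against 0.25 over all tested genes, and 0.32 against -0.004 after scaling.

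The 7 genes Pla2g4a, Ptgs1, Ptgds, Ptgis, Hpgd, Ptger1 and Ptger4 had every adenine sample above every standard sample, as did 44.4% of all tested genes. After median-of-ratios scaling 5 of the 10 did so, against 26.4% of all tested genes. None of the 10 as deposited had every adenine sample below every standard sample, as 11.8% of all tested genes did. Adenine 1 held the highest adenine value of 9 genes and the lowest of Ptger3, and adenine 3 held the reverse. Standard 3 was the lowest standard sample for 9 genes, all but Ptgds. The scale factors ran alike, at 1.18, 1.11 and 1.05 in adenine 1 to 3 and 0.912, 0.936 and 0.857 in standard 1 to 3. After scaling, adenine 1 was highest for 6 genes and standard 3 was still lowest for 9.

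**Figure D1:**
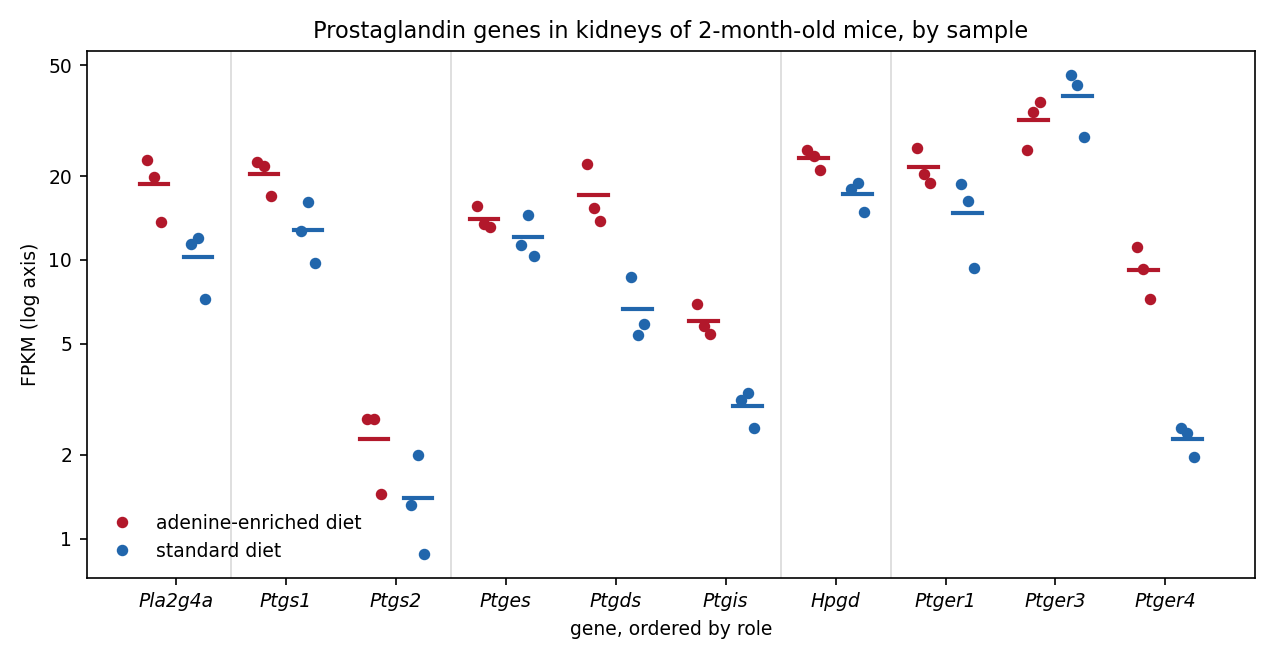
FPKM of the 10 prostaglandin genes on a log axis, ordered by role; each point is 1 sample and each short line the mean of 3 samples, with the adenine-enriched diet left of the standard diet. Ptger4 lies at 7.25 to 11.1 FPKM on the adenine-enriched diet, above its 1.97 to 2.49 FPKM on the standard diet, while the points of Ptgs2, Ptges and Ptger3 overlap between diets.

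Pla2g4a encodes the cytosolic phospholipase A2 that releases arachidonic acid after a calcium signal (chromosome 1, 149829618 to 149961290, minus strand, GRCm38). It measured 22.9, 19.9 and 13.6 FPKM in adenine 1 to 3, against 11.4, 12.0 and 7.25 FPKM in standard 1 to 3. The groups did not overlap, and adenine 3 and standard 3 were the lowest of their groups. The means were 18.8 ± 4.71 FPKM in adenine samples and 10.2 ± 2.58 FPKM in standard samples (SD, n = 3 each), a ratio of 1.84. Pla2g4a rose by 0.82 ± 0.24 (SE) on the log2(FPKM + 1) scale (limma adjusted p = 0.0407). The call ended after median-of-ratios scaling (log2 change 0.54, limma adjusted p = 0.0858), and held when the replicate number was added as a block to that scaling (0.0157).

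Ptgs1, the cyclooxygenase that most tissues make at rest (chromosome 2, 36230426 to 36252272, plus strand), measured 22.4, 21.8 and 17.0 FPKM in adenine 1 to 3, against 12.7, 16.1 and 9.71 FPKM in standard 1 to 3. The lowest adenine sample exceeded the highest standard sample by less than 1 FPKM. Ptgs1 rose 1.59-fold in the means, with a log2 change of 0.65 ± 0.19 (limma adjusted p = 0.0421), which fell short after scaling (log2 change 0.36, limma adjusted p = 0.125) and was called with scaling and block together (limma adjusted p = 0.0486). Ptgs2, the cyclooxygenase that stimuli switch on and that the macula densa and the medullary interstitium carry in kidney (chromosome 1, 150100031 to 150108227, plus strand), was less abundant in every sample. It measured 2.68, 2.68 and 1.45 FPKM in adenine 1 to 3 and 1.32, 2.00 and 0.881 FPKM in standard 1 to 3. Adenine 3 lay below standard 2, so the groups overlapped. The ratio of the Ptgs2 means was 1.62, close to the 1.59 of Ptgs1. On the log2(FPKM + 1) scale, which understates changes of low genes, its change was 0.45. The 95% interval was -0.14 to 1.04 (limma adjusted p = 0.188), so a rise of the size of that of Ptgs1 lies inside it.

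Within a library, the ratio of Ptgs2 to Ptgs1 is unaltered by a single scale factor such as median-of-ratios scaling applies; quantile normalization was not applied to ratios or shares. Its log2 was -3.06, -3.03 and -3.56 in adenine 1 to 3, against -3.26, -3.01 and -3.46 in standard 1 to 3. These values interleave, and their means differed by 0.03, less than the SD of either group (0.30 and 0.23; exact permutation test, two-sided, p = 1). With 3 samples per group that test cannot give a p below 0.1.

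The calls of Pla2g4a, Ptgs1 and Hpgd were lost in several fits with 1 sample fewer, while the log2 changes stayed positive. Over the 6 such fits they ran from 0.61 to 1.02 for Pla2g4a, from 0.47 to 0.81 for Ptgs1 and from 0.32 to 0.48 for Hpgd. For Ptgs1 the limma adjusted p became 0.108 without adenine 1, 0.127 without adenine 2, 0.0989 without standard 1 and 0.10 without standard 3. For Pla2g4a it became 0.105 and 0.119 without adenine 1 and 2, and 0.0749, 0.0646 and 0.102 without standard 1, 2 and 3. For Hpgd it became 0.0974 and 0.116 without adenine 1 and 2, and 0.0759, 0.0582 and 0.0903 without standard 1, 2 and 3. Testing all genes with no filter, which leaves the log2 changes as they were and adjusts over more genes, also ended these calls, at limma adjusted p = 0.0664 for Pla2g4a, 0.0663 for Ptgs1 and 0.0501 for Hpgd. The 6 calls therefore became 3 without adenine 1, adenine 2, standard 1 or standard 3, where 19.5%, 12.3%, 16.0% and 15.3% of all tested genes were called higher. They became 4 without standard 2 (16.6% of all tested genes) and stayed at 6 without adenine 3 (35.3%). With no filter 3 were called (18.2%), with quantile normalization 3 (13.9%), with the block 7 (31.3%) and with block and scaling together 5 (17.3%).

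**Figure D2:**
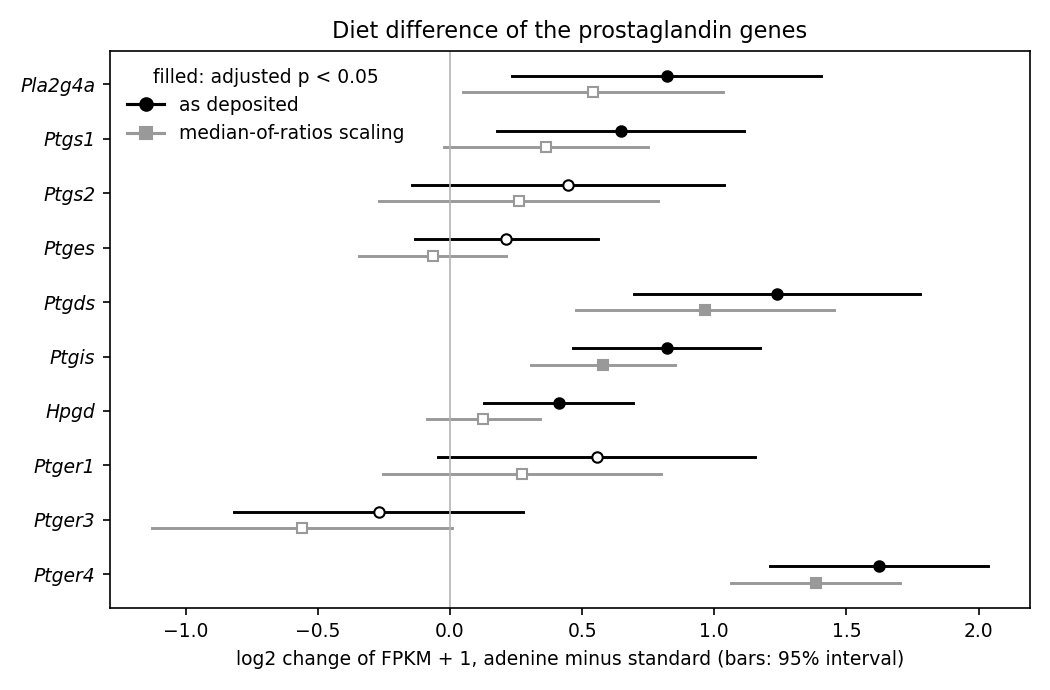
Log2 change of FPKM + 1 (adenine minus standard) of each gene with its 95% interval from limma, in black as deposited and in grey after median-of-ratios scaling; filled symbols have an adjusted p under 0.05. Ptger4, Ptgds and Ptgis are filled on both scales, at 1.62, 1.24 and 0.82 as deposited, and Ptger3 is the gene below 0 on both.

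Among the terminal synthases, those for PGD2 and prostacyclin rose and the inducible one for PGE2 was not called. Ptgds, the lipocalin-type PGD2 synthase (chromosome 2, 25466709 to 25470046, minus strand), measured 22.1, 15.3 and 13.8 FPKM in adenine 1 to 3, against 8.65, 5.39 and 5.90 FPKM in standard 1 to 3. Every adenine sample stood well above the highest standard sample. Ptgds rose 2.57-fold in the means, with a log2 change of 1.24 ± 0.23 (limma adjusted p = 0.0107), and by 0.97 after scaling (limma adjusted p = 0.0174). Ptgis, prostacyclin synthase (chromosome 2, 167191805 to 167240604, minus strand), measured 6.95, 5.80 and 5.42 FPKM in adenine 1 to 3, against 3.15, 3.34 and 2.50 FPKM in standard 1 to 3. It rose 2.02-fold, and the lowest adenine sample was well clear of the highest standard sample. The log2 change was 0.82 ± 0.15 (limma adjusted p = 0.0104), and 0.58 after scaling (limma adjusted p = 0.0144).

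Ptges, the microsomal PGE2 synthase that works with the cyclooxygenases (chromosome 2, 30889471 to 30929863, minus strand), measured 15.6, 13.4 and 13.1 FPKM in adenine 1 to 3, against 11.3, 14.5 and 10.3 FPKM in standard 1 to 3. Standard 2 lay above both adenine 2 and adenine 3. The log2 change was 0.21, with a 95% interval of -0.13 to 0.56 (limma adjusted p = 0.274), and its sign turned to -0.07 after median-of-ratios scaling. A 2-fold change in either direction lies outside both intervals (-0.34 to 0.21 after scaling).

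Hpgd, the dehydrogenase that starts the breakdown of prostaglandins (chromosome 8, 56294552 to 56321046, plus strand), measured 24.7, 23.6 and 21.1 FPKM in adenine 1 to 3, against 17.9, 18.8 and 14.8 FPKM in standard 1 to 3. It was the second most abundant of the 10 genes on both diets, and the groups did not overlap. Hpgd rose 1.35-fold, by 0.41 ± 0.12 on the log2 scale (limma adjusted p = 0.0366), but after scaling its log2 change was 0.13 (limma adjusted p = 0.309). The within-library log2 ratio of Ptges to Hpgd averaged -0.72 ± 0.08 in adenine samples and -0.52 ± 0.14 in standard samples (SD, n = 3 each). It was -0.669, -0.815 and -0.684 in adenine 1 to 3, against -0.664, -0.375 and -0.521 in standard 1 to 3. All 3 adenine ratios lay below all 3 standard ratios, but adenine 1 and standard 1 nearly touched. The exact permutation test gave its smallest possible value (two-sided p = 0.1).

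The 4 PGE2 receptors differ in the signal they pass on. EP1 raises calcium, EP3 lowers cyclic AMP, and EP2 and EP4 raise it. Ptger4, which encodes EP4 (chromosome 15, 5206661 to 5244187, minus strand), measured 11.1, 9.28 and 7.25 FPKM in adenine 1 to 3, against 2.49, 2.39 and 1.97 FPKM in standard 1 to 3. It showed the largest rise of the 10 genes, 4.04-fold in the means, and its groups were far apart. The log2 change was 1.62 ± 0.17 (limma adjusted p = 0.00405), and 1.38 after scaling (limma adjusted p = 0.00358). In whole-kidney RNA a change in how many cells of a type are present and a change in RNA per cell cannot be told apart. This holds for Ptger4 and for every other gene described, above and below.

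Ptger3, which encodes EP3 and is known from the thick ascending limb and collecting duct (chromosome 3, 157566892 to 157644758, plus strand), was the most abundant of the 10 genes on both diets. It measured 24.7, 33.8 and 36.8 FPKM in adenine 1 to 3, against 46.2, 42.6 and 27.7 FPKM in standard 1 to 3. Standard 3 lay below adenine 2 and adenine 3, so the groups overlapped. The log2 change was -0.27, with a 95% interval of -0.82 to 0.28 (limma adjusted p = 0.372), and -0.56 after scaling (-1.13 to 0.01, limma adjusted p = 0.113).

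Ptger1, which encodes EP1 (chromosome 8, 83666833 to 83672753, plus strand), measured 25.3, 20.4 and 18.9 FPKM in adenine 1 to 3, against 18.6, 16.3 and 9.39 FPKM in standard 1 to 3. Its log2 change of 0.55 (-0.04 to 1.15) was not called (limma adjusted p = 0.121), and passed once replicate number entered as a block (limma adjusted p = 0.0443). No label states strand-specific counting, so reads from genes whose exons overlap cannot be told apart, and the values of Ptger1 are uncertain for that reason. In GENCODE release M21, Ptger4 shares 15.3% of its exon bases with a pseudogene listed at no more than 0.177 FPKM in any sample.

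Ptger2, the gene of the fourth receptor, EP2, and not among the 10 genes, stayed under the filter and was not tested. It was listed at 0.769, 0.509 and 0.365 FPKM in adenine 1 to 3 and at 0.261, 0.148 and 0.0746 FPKM in standard 1 to 3, the last being below what 3 fragments of a 2 kb transcript would give.

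Expressed as shares within each library, which a single scale factor does not alter, the receptor genes are compared next. Ptger3 supplied 40.0%, 52.8% and 58.1% of the summed FPKM of the 4 receptor genes in adenine 1 to 3, against 68.4%, 69.4% and 70.8% in standard 1 to 3. Ptger4 supplied 18.0%, 14.5% and 11.5% in adenine 1 to 3, against 3.68%, 3.89% and 5.03% in standard 1 to 3. Neither share overlapped between diets, and each reached the smallest p that the exact permutation test can give (two-sided p = 0.1). Ptger1, whose values are uncertain, supplied 34.2 ± 5.85% in adenine samples and 26.0 ± 1.85% in standard samples (SD, n = 3 each). Shares of a common sum are not independent, since a rise of any share lowers the rest. With Ptger1 left out of the sum, Ptger4 supplied 22.7 ± 7.11% in adenine samples and 5.66 ± 0.832% in standard samples. Ptger3 then supplied 76.0 ± 7.77% in adenine samples and 94.0 ± 0.721% in standard samples. The log2 ratio of Ptger4 to Ptger3 was -1.15, -1.86 and -2.34 in adenine 1 to 3 and -4.22, -4.16 and -3.82 in standard 1 to 3, a 4.84-fold difference of ratios.

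**Figure D3:**
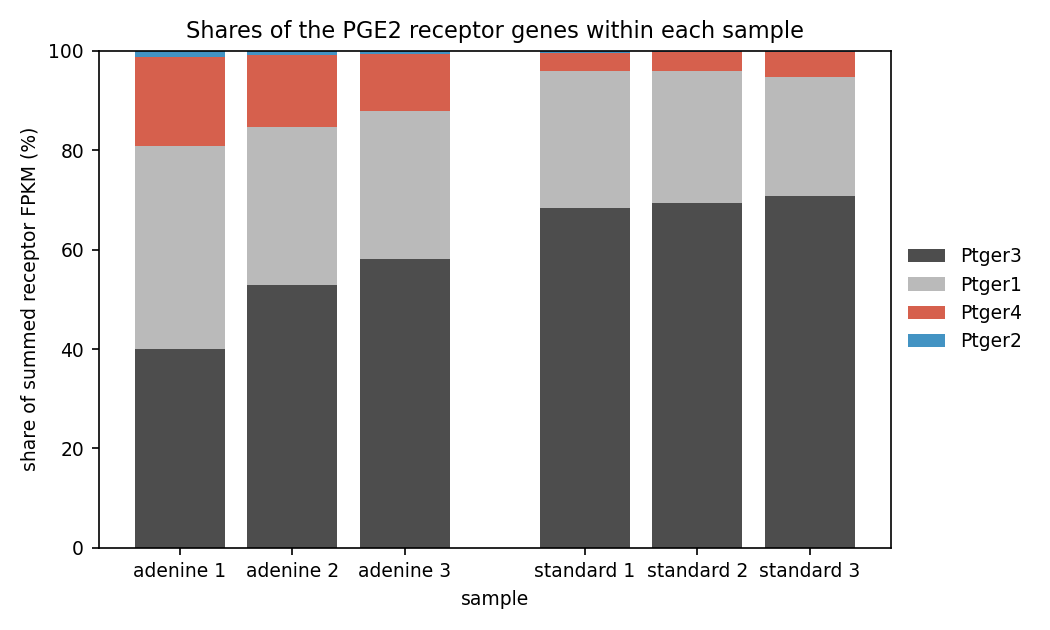
Share of each PGE2 receptor gene in the summed FPKM of Ptger1, Ptger2, Ptger3 and Ptger4, as stacked bars for each sample, with the adenine samples left of the standard samples. Ptger3 fills 40.0% to 58.1% of the adenine bars and 68.4% to 70.8% of the standard bars, and Ptger4 11.5% to 18.0% and 3.68% to 5.03%. Ptger1, whose values are uncertain, is part of each sum.

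Promoter windows from RefSeq on GRCm38.p6, from 250 bases before to 50 after the annotated start, were matched for 8 of the 10 genes; Ptgis and Ptger1 had no entry. They are shown for Ptger4 and Ptgds, whose rises held after scaling, and for Ptgs2, the inducible gene whose groups overlapped. Capitals mark matches, on either strand, to TATAAA (the core promoter box), to CCAAT (the binding letters of NF-Y), the GC box GGGCGG, the E-box CACGTG, the cyclic AMP element core CGTCA and the C/EBP palindrome TTGCGCAA.
Ptger4 (chr15:5244138-5244437, minus strand): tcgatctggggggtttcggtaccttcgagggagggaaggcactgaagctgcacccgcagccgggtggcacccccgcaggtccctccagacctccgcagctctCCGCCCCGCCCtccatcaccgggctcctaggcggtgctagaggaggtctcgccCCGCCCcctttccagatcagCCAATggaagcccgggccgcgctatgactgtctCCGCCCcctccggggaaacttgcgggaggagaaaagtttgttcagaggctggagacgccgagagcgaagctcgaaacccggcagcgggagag
Ptgds (chr2:25469700-25469999, minus strand): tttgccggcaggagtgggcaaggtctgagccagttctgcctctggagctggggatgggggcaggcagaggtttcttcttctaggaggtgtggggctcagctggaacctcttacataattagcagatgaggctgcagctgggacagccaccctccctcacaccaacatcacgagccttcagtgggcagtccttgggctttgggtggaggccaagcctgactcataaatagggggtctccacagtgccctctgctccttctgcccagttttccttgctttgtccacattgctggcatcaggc
Ptgs2 (chr1:150099781-150100080, plus strand): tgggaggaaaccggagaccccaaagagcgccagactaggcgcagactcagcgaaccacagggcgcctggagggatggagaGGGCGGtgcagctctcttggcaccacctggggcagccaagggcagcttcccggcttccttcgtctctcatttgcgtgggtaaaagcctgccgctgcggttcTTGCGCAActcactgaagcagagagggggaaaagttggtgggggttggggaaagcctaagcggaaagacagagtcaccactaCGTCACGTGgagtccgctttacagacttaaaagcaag
The Ptger4 window is 67.0% G and C, against a median of 52.7% over all 32851 windows, and holds 4 GC boxes, of which a pair overlaps by a base, and 1 CCAAT; 35.7% and 37.4% of all windows hold those motifs. The Ptgds window holds none of the 6 motifs. The Ptgs2 window holds 1 GC box and TTGCGCAA, the latter found in 0.183% of windows. It also holds CGTCA and CACGTG, which overlap each other there and occur in 20.8% and 7.15% of windows. Ptger3, the receptor gene with the negative log2 change, has 3 GC boxes. Such matches describe letters only.

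The rest of the prostanoid pathway was taken from a list of 20 other genes, of which 19 were found as separate entries and 16 could be tested. On the adenine-enriched diet 6 of the 16 rose and 1 fell as deposited, and after scaling 5 rose and 4 fell. The corresponding shares of all tested genes were 29.7% and 6.84% as deposited and 16.8% and 15.2% after scaling. The list's median log2 change was 0.30 as deposited and 0.07 after scaling.

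Other synthases were not alike in their calls. Hpgds, the hematopoietic PGD2 synthase of mast cells and macrophages, measured 5.44, 3.30 and 2.21 FPKM in adenine 1 to 3, against 0.710, 0.416 and 0.416 FPKM in standard 1 to 3. Its rise of 7.10-fold (log2 change 1.57 ± 0.27, limma adjusted p = 0.00906) brought both PGD2 synthases among the genes that rose. Tbxas1, thromboxane synthase, rose 2.02-fold to 9.34 ± 1.66 FPKM in adenine samples, against 4.63 ± 0.338 FPKM in standard samples (SD, n = 3 each; limma adjusted p = 0.00889). The other PGE2 synthases were not called, with Ptges2 at 25.4 ± 2.38 against 28.9 ± 5.63 FPKM and Ptges3 at 66.1 ± 3.45 against 73.6 ± 16.2 FPKM in adenine and standard samples (limma adjusted p = 0.419 and 0.514). Ptges2 was called lower with the block and scaling together (log2 change -0.46, limma adjusted p = 0.0201). Fam213b, another gene of the list, was at 7.25 ± 1.01 FPKM in adenine samples and 5.65 ± 0.824 FPKM in standard samples. It was not called (log2 change 0.31, limma adjusted p = 0.149).

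Akr1b3, an aldose reductase that also forms PGF2 alpha and is abundant in the renal medulla, measured 136, 103 and 92.0 FPKM in adenine 1 to 3, against 248, 435 and 126 FPKM in standard 1 to 3. Standard 3 lay below adenine 1, and the difference was not called as deposited (log2 change -1.13, limma adjusted p = 0.0798), was called after scaling (log2 change -1.42, limma adjusted p = 0.0377) and without standard 3 (limma adjusted p = 0.0299). Cbr1, a carbonyl reductase that can turn PGE2 into PGF2 alpha, rose 1.5-fold (limma adjusted p = 0.0163, and 0.0673 after scaling). Its call was also lost without adenine 2 (0.0521), standard 2 (0.0533) or standard 3 (0.0556).

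Uptake and breakdown genes moved in different directions. Slco2a1, the transporter that carries prostaglandins into cells for breakdown, measured 18.3, 15.4 and 12.7 FPKM in adenine 1 to 3, against 6.68, 7.85 and 7.33 FPKM in standard 1 to 3. It rose 2.12-fold (log2 change 0.98 ± 0.15, limma adjusted p = 0.00735). Ptgr2, a reductase that acts on keto-prostaglandins after the Hpgd step, measured 54.8, 61.6 and 64.3 FPKM in adenine 1 to 3, against 85.5, 99.3 and 109 FPKM in standard 1 to 3. It was the 1 gene of the list that fell as deposited, by 0.69 on the log2 scale (limma adjusted p = 0.0091). Ptgr1 and Zadh2, reductases of the same step, had log2 changes of -0.30 and -0.10 that were not called (limma adjusted p = 0.079 and 0.384), and both were called lower after scaling (-0.55 and -0.39, limma adjusted p = 0.02 and 0.0219). Abcc4, an exporter of prostaglandins, was at 14 ± 4.28 against 9.14 ± 3.03 FPKM in adenine and standard samples and was not called (limma adjusted p = 0.161, and 0.0489 without adenine 3).

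Receptors for the other prostanoids also differed among themselves. Ptgir, the prostacyclin receptor, measured 5.08, 2.83 and 2.80 FPKM in adenine 1 to 3, against 1.31, 0.948 and 1.05 FPKM in standard 1 to 3, and rose 3.23-fold (log2 change 1.09 ± 0.22, limma adjusted p = 0.0137). Synthase and receptor of prostacyclin, Ptgis and Ptgir, thus both passed the test. The PGF2 alpha receptor gene Ptgfr was at 5.81 ± 0.262 FPKM in adenine samples and 6.36 ± 1.85 FPKM in standard samples (limma adjusted p = 0.774), and the thromboxane receptor gene Tbxa2r was at 2.91 ± 0.807 and 2.15 ± 0.382 FPKM (limma adjusted p = 0.27). Ptgfrn, which encodes a membrane protein that binds to the PGF2 alpha receptor and is no receptor itself, rose 3.70-fold (limma adjusted p = 0.00525). The PGD2 receptor genes Ptgdr and Ptgdr2 did not exceed 0.039 FPKM in any sample and were not tested.

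**Figure D4:**
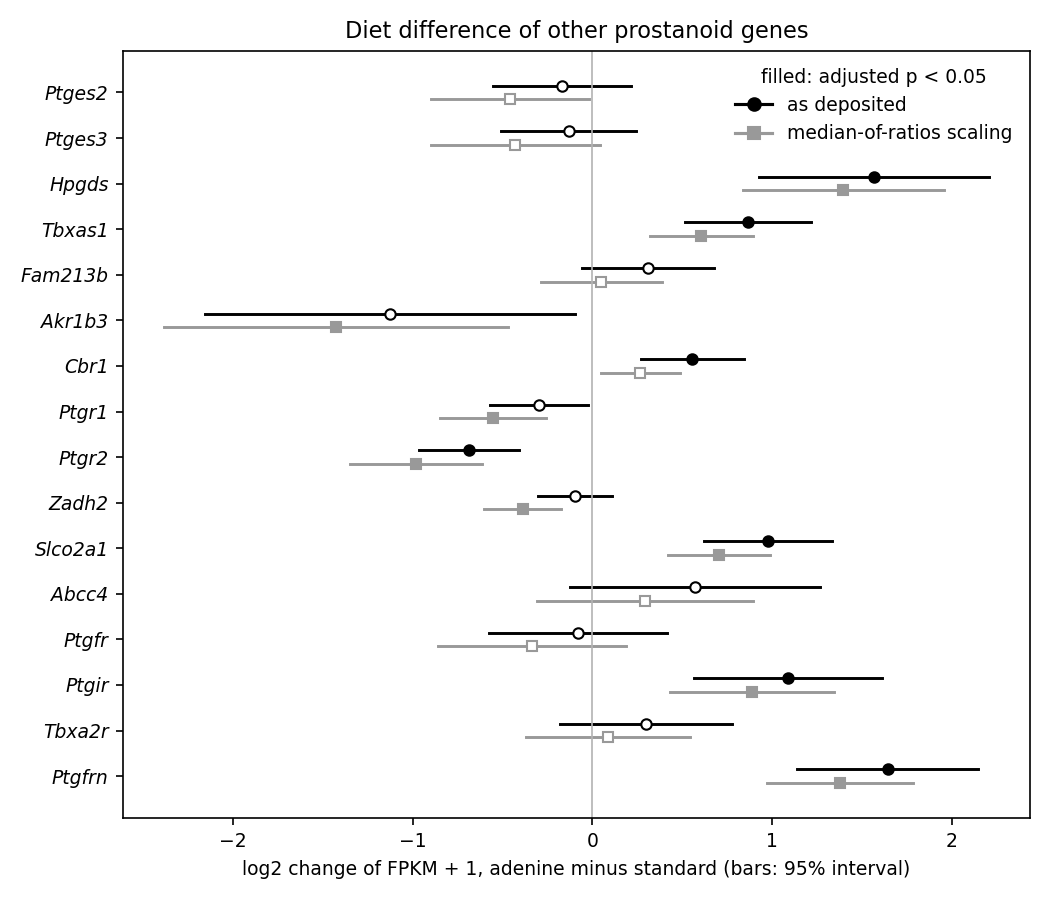
Log2 change of FPKM + 1 (adenine minus standard) for the 16 other prostanoid genes tested, with 95% intervals from limma, black as deposited and grey after median-of-ratios scaling; filled symbols have an adjusted p under 0.05. Hpgds (1.57) and Ptgfrn (1.64) lie farthest right as deposited, and Ptgr2 is the filled gene below 0 on both scales.

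A further list held 33 genes of the phospholipase A2, lipoxygenase, leukotriene and epoxide branches, with receptors and Anxa1 included. Of these 18 could be tested, 9 rose and none fell as deposited. After scaling 6 rose and 2 fell. Of all tested genes 29.7% rose and 6.84% fell as deposited, and 16.8% and 15.2% after scaling. Without standard 2 the 9 became 5. Ephx2 was called lower without adenine 3, and Ephx1 without standard 3. Alox5ap, the protein that hands arachidonic acid to lipoxygenase in leukocytes, measured 29.5, 23.7 and 15.9 FPKM in adenine 1 to 3, against 4.78, 4.80 and 5.58 FPKM in standard 1 to 3 (log2 change 1.95 ± 0.22, limma adjusted p = 0.0042). Pla2g5, a secreted phospholipase A2, rose 3.56-fold and Cysltr1, a cysteinyl leukotriene receptor, rose 7.70-fold (limma adjusted p = 0.00443 and 0.00911). Anxa1, whose product restrains phospholipase A2, rose 4.26-fold (limma adjusted p = 0.0103).

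Set in order of FPKM, the genes ran Ptger3, Hpgd, Ptger1, Ptgs1, Pla2g4a, Ptgds, Ptges, Ptger4, Ptgis and Ptgs2 in adenine samples. In standard samples the order was Ptger3, Hpgd, Ptger1, Ptgs1, Ptges, Pla2g4a, Ptgds, Ptgis, Ptger4 and Ptgs2. Neighbours overlapped in range except, in adenine samples, Ptges and Ptger4, Ptger4 and Ptgis, and Ptgis and Ptgs2, and in standard samples Ptger3 and Hpgd, Ptgds and Ptgis, and Ptgis and Ptger4. Ptgs2 closed both orders, and Ptger4 stood above Ptgis in adenine samples and below it in standard samples.

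Among 10484 genes averaging 5 FPKM or more, the gene most like Ptger4 over the 6 samples was Nck2 (Pearson's r = 0.9998), that most like Ptgds was Fam60a (0.9966) and that most like Ptgis was Pld3 (0.9995). For Pla2g4a it was Pdgfra (0.9991), for Ptgs1 Ano6 (0.9999), for Ptgs2 Mios (0.9921) and for Hpgd Hnrnpul1 (0.9999). The most alike genes were Cnot2 for Ptges (0.9929), 1110038F14Rik for Ptger1 (0.9984) and Emx2 for Ptger3 (0.9931). With 6 samples such values are common, as 1871 genes passed r = 0.95 with Ptger4 but 8 did so with Ptger3, and all of them share the same libraries and depth.

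Markers of other cell types moved with the diet, read against the 29.7% of all tested genes called higher and 6.84% called lower as deposited, and 16.8% and 15.2% after scaling. All 6 macrophage genes rose as deposited, after scaling and with any 1 sample left out, with a summed level of 266 to 548 FPKM in adenine samples and 62.2 to 68.3 FPKM in standard samples. All 6 fibroblast and pericyte genes rose as deposited and 5 after scaling, at 527 to 1019 FPKM in adenine samples against 85.3 to 121 FPKM in standard samples, and 4 to 6 were called with 1 sample left out. The 5 mast cell genes stayed under the filter, at a sum of 1.39 to 2.98 FPKM in adenine samples and 0.19 to 0.503 FPKM in standard samples. Of 3 tested neutrophil genes 1 rose on both scales, and 3 did without adenine 3 or standard 3 (sums 13.1 to 37.7 FPKM in adenine samples against 2.78 to 11.7 FPKM in standard samples). Of 2 tested platelet genes Pf4 rose on both scales and Itga2b fell after scaling and, as deposited, without adenine 3 (sums 10.6 to 19.4 against 8.20 to 10.1 FPKM in adenine and standard samples), with Gp9 at 0 in all samples.

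In the proximal tubule list 4 of 5 genes fell as deposited and after scaling. Only Slc5a2, a glucose transporter, was called without adenine 2, standard 2 or standard 3 and with no filter, and 2 genes were called without adenine 1 or standard 1 and with quantile normalization. Of 5 thick ascending limb genes 1 rose (Cldn16) and 2 fell as deposited, and none rose and 3 fell after scaling. None of the 5 was called without adenine 2, and Cldn10 alone was called lower without standard 2 or standard 3. Without standard 1, Cldn16 was called higher and Cldn10 lower.

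Among cells known to carry these prostaglandin genes, no principal cell gene of 6 was called as deposited, at a median log2 change of -0.38. After scaling Aqp3, Avpr2 and Fxyd4 fell, and as deposited without standard 3 Aqp2, Aqp3 and Avpr2 did. Sums were 223 to 236 FPKM in adenine samples and 177 to 324 FPKM in standard samples. Of 4 tested macula densa and juxtaglomerular genes 1 rose as deposited (Akr1b7). Sums were 48.7 to 74.0 FPKM in adenine samples and 50.6 to 55.4 FPKM in standard samples. These sums describe mainly Ren1, with means of 52.5 FPKM in adenine samples and 44.7 FPKM in standard samples. Nos1, not tested, averaged 0.16 and 0.14 FPKM, and Pappa2 0.56 and 0.50 FPKM, so both were barely measured. The Akr1b7 call was lost after scaling, with the replicate block (limma adjusted p = 0.0601) and without each of adenine 1, adenine 2 and the 3 standard samples; Ren1 was called higher without adenine 1, and Avpr1a without adenine 3.

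In endothelium 1 of 5 genes rose as deposited (Egfl7), and none rose and 2 fell (Kdr and Emcn) after scaling. The Egfl7 call was also lost with the block and with any 1 sample left out, and Kdr was called lower without adenine 3 and Emcn without standard 3. In smooth muscle 2 of 4 genes rose on both scales and with any 1 sample left out. In podocytes 4 of 4 rose as deposited, 2 after scaling and 3 with the block, and 2 without standard 1 or standard 3. In urothelium none of 5 was called on either scale, and Upk3a was called higher with the block (limma adjusted p = 0.0205). Adenine 1, the sample with the highest Ptger4, Ptgds, Ptgis and Hpgds, also had the largest scale factor (1.18). Its macrophage (548 FPKM), fibroblast (1019 FPKM), smooth muscle (245 FPKM), podocyte (125 FPKM), platelet (19.4 FPKM) and mast cell (2.98 FPKM) sums were the highest. Its proximal tubule (459 FPKM), thick ascending limb (3479 FPKM) and macula densa and juxtaglomerular (48.7 FPKM) sums were the lowest. The neutrophil sum was highest in adenine 2, the urothelium sum in adenine 3, and the endothelium and principal cell sums in standard 1. The part of these cell types in the rises of the prostaglandin genes was not tested.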

How the data were processed

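Whole-kidney RNA of 6 samples was sequenced as paired-end reads from TruSeq RNA libraries, per the labels' protocols. Per the submitters' processing notes, bcl2fastq 2.0, TopHat, Cufflinks 2.1.1 and the builds mm10 and GRCm38 were involved. Which annotation was used is not given in the sources used here. FPKM values per gene are what the authors deposited, per the file headers, with a column per sample. The 6 value columns of another table carry names that match none of the 6 samples, and they were left out.

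FPKM are not counts, so limma 3.58.1 in R 4.3.3 was fitted to log2(FPKM + 1) with the diet as the term, an intensity trend and all 6 samples, two-sided, for the 15431 genes averaging 0.5 FPKM or more. Benjamini-Hochberg adjustment ran over all of these, with a threshold of 0.05. This scale understates changes of low genes; ratios are of mean FPKM. The code was tested on simulated data. Depth was estimated in single-transcript genes over 2000 bp below 0.3 FPKM; with a nominal 200 bp fragment, 65.9% to 74.2% of low values lay within 0.15 of whole fragments, too few for a count test. Exon overlaps use GENCODE M21, which holds 97.9% of the table's identifiers.

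Within-library ratios and shares were tested by exact permutation. The main fit and the permutation tests were unpaired. For the replicate block alone, same-numbered samples were taken as pairs. After subtracting group means they correlated at 0.257, 0.143 and 0.181, against -0.187 to 0.0376 for other pairs. Deviations from a group mean cancel within the group, so a positive value for a pair pushes other pairs down. No label states a pairing, and it was read from these same data, so calls that need the block rest on it. With such pairs, an exact sign-flip test gave p = 0.25 for the log2 ratios of Ptges to Hpgd and of Ptger4 to Ptger3. Alternatives were pseudocounts of 0.1 and 0.5, no filter, a stricter filter of 5 FPKM, scaling by median of ratios or quantiles, the replicate block, no trend and leaving out each sample. Named were all 10 members, other prostanoid genes that were called or complete a family, the 4 further eicosanoid genes with the smallest adjusted p, and for each member its most similar gene. The members and all gene lists were chosen with earlier results of these data known. Adgre1 was found under the older symbol Emr1. A result on overlapping exons is not reported here.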

Additional observations from a re-analysis of the deposited data

How the results depend on the processing

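Ptger4, Ptgds and Ptgis kept their direction and call under every alternative run in which they were tested, at limma adjusted p of 0.00193 to 0.0246, 0.00602 to 0.0411 and 0.00882 to 0.0458. The 6 called prostaglandin genes became 3 with no filter, 3 after median-of-ratios scaling, 3 with quantile normalization, 7 with the replicate block and 3 to 6 on leaving out 1 sample. On leaving out 1 sample, counts of rises and falls together ranged from 6 to 8 for the other prostanoid genes, against 7 with all samples. They held 7 rises and 1 fall without adenine 3, and 5 rises and 2 falls without standard 3. For the other eicosanoid genes the counts ranged from 5 (without standard 2) to 11 (without adenine 3, 10 higher and 1 lower), against 9. In these fits 12.3% (without adenine 2) to 35.3% (without adenine 3) of all tested genes were called higher. The shares called lower in them are not given, so a steady count is not read as a steady result. The difference in the log2 ratio of Ptgs2 to Ptgs1, 0.0322, turned to -0.00618 with a pseudocount of 0.1 and ranged from -0.0757 to 0.203 with 1 sample left out. Signs of uncalled genes also turned: Ptgs2 to -0.052 and Ptges to -0.124 with quantile normalization, Ptges to -0.066 after median-of-ratios scaling with or without the block, Fam213b to -0.12 and Tbxa2r to -0.221 with quantile normalization. With 1 sample left out, Ptges3 ranged from -0.25 to 0.037 and Ptgfr from -0.309 to 0.039. Over 30 named genes and 443 alternative values, 393 kept direction and side of the threshold, 30 lost a call, 11 gained one and 9 turned sign; the cause was not tested. Apart from Ptger1, the block changed no call as deposited among the 10 genes. Depth limits Ptgdr and Ptgdr2, which lie below what 3 fragments of a 2 kb transcript give in every sample, and Ptger2 in standard 3.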

Other observations

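Some further lipid mediator genes are given as values. Below the filter and not tested, Ltb4r1, a leukotriene B4 receptor gene, was at 0.931, 0.597 and 0.553 FPKM in adenine 1 to 3 and at 0.0979, 0 and 0.322 FPKM in standard 1 to 3. Also below it, Alox5, the lipoxygenase served by Alox5ap, was at 0.729, 0.757 and 0.495 FPKM in adenine 1 to 3 and at 0.251, 0.467 and 0.0323 FPKM in standard 1 to 3. Pla2g2d, a secreted phospholipase A2, was at 6.64 FPKM in adenine 1 alone, against 0.428 and 0.995 FPKM in adenine 2 and 3 and 0.148 to 0.573 FPKM in standard samples, and was not called (limma adjusted p = 0.221). Ephx2, an epoxide hydrolase, was at 97.5, 136 and 238 FPKM in adenine 1 to 3, against 214 to 231 FPKM in the standard samples. Adenine 1 and 2 lay below every standard sample and adenine 3 above them. Ephx2 was not called with all samples (limma adjusted p = 0.154) and was called lower without adenine 3. These genes were chosen after their values were seen.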
